A study of Drosophila melanogaster with 3 samples.

Results

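The genes described here are those nearest to the 10 strongest CrebB peaks that lie away from promoters: CG11050, cbt, Lk6, CG9663, hll, CG13323, CG4004, Tlk, CG42507 and CG32772, 10 of the 13945 protein-coding genes of chromosomes 2, 3, 4 and X. They were chosen by the peak caller's signal value, a number per peak with no stated scale. The rule took the optimal peaks whose summit lay more than 500 bp from every protein-coding transcription start site (TSS), which were 1780 of the 3915 optimal peaks and are called distal here, and kept the genes nearest to the strongest of them. All 10 genes have such a peak, and their 10 peaks are the distal peaks among the 28 strongest optimal peaks of any kind. The data were TF ChIP-seq peak lists from 3 biological replicates, 1 group in all, of whole Drosophila melanogaster embryos of both sexes, 0 to 24 hours old, from a transgenic line with a stable CrebB fusion carrying GFP at its C-terminus. The antibody label names CrebB for all 3 libraries, while a description field of the same libraries speaks of an input control, so the values are read here as CrebB ChIP on the antibody label alone. A whole embryo mixes all tissues, and no untagged or unbound library was analysed here. The lists give no read numbers, so the depth behind a peak is unknown.

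CrebB is the fly member of the CREB family, transcription factors with a basic leucine zipper that are known for binding the cAMP response element (CRE) and for switching genes in response to cAMP and calcium signals. In flies CrebB is best known from long-term memory and daily rhythms. Among the genes near these peaks, cbt encodes a zinc finger transcription factor of the TIEG class, and its neighbour ush encodes a zinc finger partner of GATA factors. CG42507 shares its distance to the peak with Trl, which encodes the GAGA factor, a chromatin protein that binds repeats of GA. Lk6 is a kinase of the Mnk family that phosphorylates the translation factor eIF4E, and Tlk is the Tousled-like kinase, which acts in chromatin assembly. CG9663 encodes a transporter of the ABC family, and hll (heimdall) an acyl-CoA synthetase related to bubblegum. The RefSeq annotation gives CG11050, CG13323, CG4004, CG42507 and CG32772 only as uncharacterized proteins.

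6 of the member windows are printed as examples, while those of CG9663 and CG4004, which also hold matches described below, are not. Each window spans 100 bp on both sides of the summit on the forward strand of dm6, taken from the RefSeq copy of Release 6. Capitals mark every match, on either strand, to 1 of 15 motifs searched and to 5 words of 8 bases: the 2 found in 4 member windows and 3 of the 12 found in 3, those in the fewest distal peaks. The windows are chr2L:6612608-6612808 for CG11050, chr2L:480996-481196 for cbt, chr3R:11760944-11761144 for Lk6, chrX:3742115-3742315 for Tlk, chr3L:14759388-14759588 for CG42507 and chrX:4910259-4910459 for CG32772.
CG11050: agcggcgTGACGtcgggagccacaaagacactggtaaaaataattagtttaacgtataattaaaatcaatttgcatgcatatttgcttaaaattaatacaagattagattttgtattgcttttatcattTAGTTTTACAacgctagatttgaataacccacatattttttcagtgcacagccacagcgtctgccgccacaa
cbt: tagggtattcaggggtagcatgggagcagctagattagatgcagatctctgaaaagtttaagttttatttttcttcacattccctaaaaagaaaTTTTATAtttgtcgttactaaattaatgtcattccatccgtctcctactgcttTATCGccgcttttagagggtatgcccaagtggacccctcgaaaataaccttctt
Lk6: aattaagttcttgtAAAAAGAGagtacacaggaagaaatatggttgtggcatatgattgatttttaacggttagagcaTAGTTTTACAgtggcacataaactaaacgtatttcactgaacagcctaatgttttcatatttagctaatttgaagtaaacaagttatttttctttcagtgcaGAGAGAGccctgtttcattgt
Tlk: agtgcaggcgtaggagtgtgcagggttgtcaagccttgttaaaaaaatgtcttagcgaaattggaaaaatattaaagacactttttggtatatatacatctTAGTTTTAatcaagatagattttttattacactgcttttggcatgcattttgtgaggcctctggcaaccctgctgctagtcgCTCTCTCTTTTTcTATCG
CG42507: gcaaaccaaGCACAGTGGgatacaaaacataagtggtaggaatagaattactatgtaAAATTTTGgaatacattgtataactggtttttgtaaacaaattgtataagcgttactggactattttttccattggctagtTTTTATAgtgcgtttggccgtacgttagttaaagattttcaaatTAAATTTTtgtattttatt
CG32772: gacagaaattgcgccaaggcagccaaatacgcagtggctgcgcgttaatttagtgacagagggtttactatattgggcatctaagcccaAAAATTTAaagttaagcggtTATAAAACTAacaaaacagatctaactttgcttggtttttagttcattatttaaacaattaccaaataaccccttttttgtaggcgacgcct
The CG11050 window carries a CRE core near its left end, the cbt window a TATA box match that reaches the summit, and the CG42507 window a pair of overlapping 8-mers near its left end.

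The 2 strongest peaks of the whole optimal list were both distal. The first, chr2L:6612370-6612919, had a signal of 3466 and its summit at 6612708, 1021 bp downstream of a CG11050 TSS. That summit lies in intron 2 of 4, within the coding span, and the intron is only 140 bp long, so the summit is 68 bp from its 5′ end and 73 bp from its 3′ end, and the peak of 550 bp reaches into both neighbouring exons. The neighbouring genes are Dpp10, 11640 bp to the left, and DIP-iota, 4426 bp to the right. The second peak, chr2L:480909-481286, had a signal of 2962 and a summit 1408 bp upstream of the cbt TSS. The same summit lies in intron 1 of ush, before the start codon, 4765 bp from its 5′ end, in an intron of 13185 or 49060 bp depending on the transcript. The nearest coding gene that does not contain it on the right is lwr, 59503 bp away.

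Both kinase genes held their peak in an intron of their own. The Lk6 peak, chr3R:11760877-11761273, had a signal of 2183 and optimal rank 8. Its summit was 965 bp upstream of an internal Lk6 TSS, in intron 1 of the longer transcript, which is 6991 bp long, and the neighbours are CG43062, 10128 bp to the left, and l(3)neo38, 3994 bp to the right. The Tlk peak, chrX:3742063-3742380, had a signal of 1543 and rank 25. It lies 2318 bp downstream of a Tlk TSS in an intron that measures 41450, 56783 or 60007 bp in different transcripts, with Rala 22580 bp to the left and HIP-R 47754 bp to the right.

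Of the metabolic and transport genes, CG9663 had its peak within the gene and hll did not. The CG9663 peak, chr2L:3301999-3302345, had a signal of 1858 and rank 16, with the summit in intron 1, of 1292 bp, before the start codon and 955 bp downstream of the TSS. It stands between CG9664, 7469 bp to the left, and CG3277, 1925 bp to the right. The hll peak, chr2L:14023902-14024343, had a signal of 1782 and rank 18, and its summit lies 2921 bp upstream of the hll TSS and 3872 bp from NimC3. This summit falls in the exon of a noncoding gene, lncRNA:CR31840, 19 bp from that gene's start, so it is distal only to protein-coding TSSs, the only such case of the 10.

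The 4 remaining genes have no described function here. The CG13323 peak, chr2R:13035176-13035488, with a signal of 1741 and rank 19, was the only one of the 10 with no host gene of any kind. It is 11913 bp from the CG13323 TSS and 9352 bp from the end of the gene, and Su(z)2, a relative of the Polycomb group gene Psc, lies 27432 bp to the left. The CG4004 peak, chrX:12751181-12751585, with a signal of 1636 and rank 23, lies 1532 bp past the end of CG4004, in an exon of lncRNA:Vinr and 550 bp from the start of lncRNA:CR44619, with Paics, a gene of purine synthesis, 5719 bp to the right. The CG42507 peak, chr3L:14759334-14759708, with a signal of 1539 and rank 26, is 1526 bp from a start shared by CG42507 and Trl. Its summit lies in intron 2 of a Trl transcript, of 3233 bp and before the start codon, and Tsen34 is 1032 bp to the right. The CG32772 peak, chrX:4910211-4910535, with a signal of 1536 and rank 28, lies in an intron of CG32772 of 1054 bp, 1257 bp downstream of a TSS, between CG6927 (1538 bp) and CG4041 (4921 bp).

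In all, 5 of the 10 summits lay inside the listed gene, and the same share over all distal peaks was not counted. The distances to the nearest coding TSS ran from 955 to 11913 bp. The median distance was 1467 bp for the 10 peaks, 1692.5 bp for the 100 distal peaks of highest signal and 2708 bp for all 1780 distal peaks. The signals of the 10 peaks spanned 1536 to 3466, against a median of 217 and a lowest value of 152 over all distal peaks. The choice by signal had no gap at its edge: just inside it stood CG32772 at 1536, and just outside stood the peaks near chif, at 1531, and jp, at 1512.

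**Figure D1:**
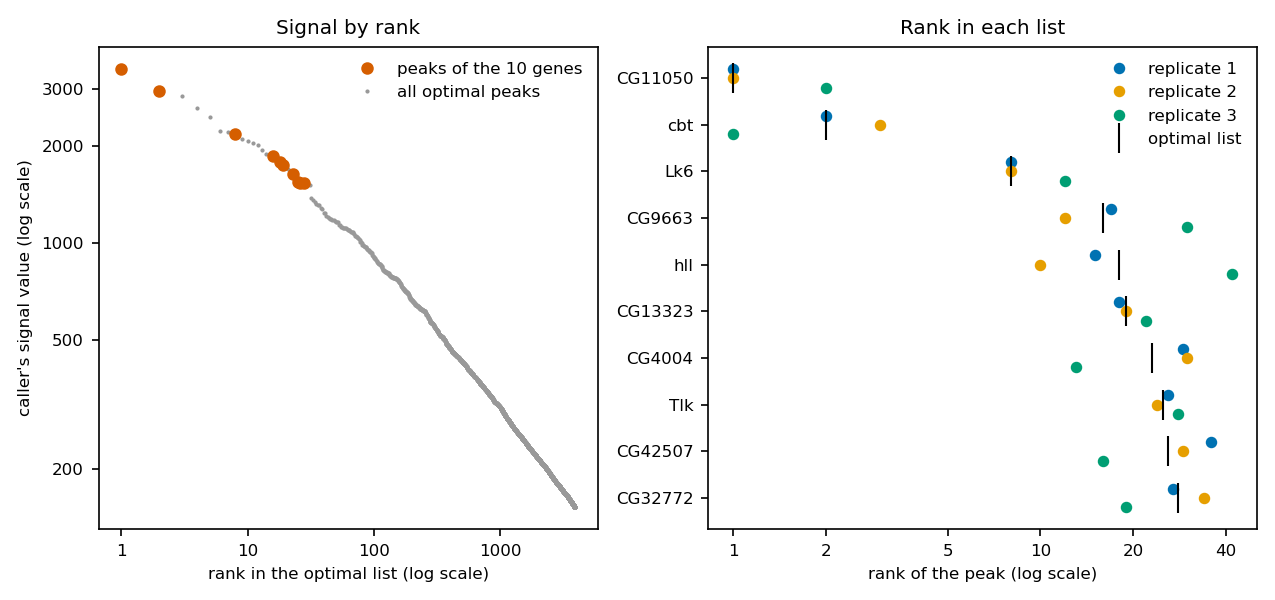
Left, the caller's signal value of every optimal peak against its rank, both on log scales, with the peaks of the 10 genes in orange. Right, the rank of each gene's peak in the lists of replicates 1, 2 and 3 (coloured points) and in the optimal list (black bars), on a log scale. CG11050 and cbt hold ranks 1 to 3 in every replicate, while hll ranges from 10 to 42.

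Ranks in the replicate lists are a description, since those lists went into the list that chose the genes. The CG11050 peak ranked 1, 1 and 2 in replicates 1, 2 and 3, with signals of 1230, 1210 and 1017. The cbt peak ranked 2, 3 and 1, with signals of 1056, 862 and 1029, so these 2 held the top distal places in all 3 replicates. Lk6 held distal rank 3 in each replicate and ranked 8, 8 and 12 among all peaks. The ranks of CG9663 were 17, 12 and 30, and those of hll were 15, 10 and 42, both lowest in replicate 3. CG13323 ranked 18, 19 and 22, and Tlk 26, 24 and 28, the narrowest spreads among the peaks below the first 10 places. CG4004 ranked 29, 30 and 13, CG42507 ranked 36, 29 and 16, and CG32772 ranked 27, 34 and 19, all 3 highest in replicate 3. Signals are set side by side here as each list gives them, with no comparison of level between lists.

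All 10 peaks had a summit within 100 bp among the 3915 strongest peaks of each replicate, a support that 51.0% of the 1780 distal peaks had. The 10 were chosen for high signal in a list made from these replicates, so this difference follows from the choice. Of the 10 strongest distal peaks, counted in each replicate's own order, 8, 8 and 9 belonged to these genes in replicates 1, 2 and 3. The summit position varied over the 3 replicates by 5 bp for CG11050, by 8 bp for cbt, CG9663 and CG13323, and by 16 to 31 bp for hll, Lk6, CG32772, CG42507 and Tlk. CG4004 stood apart with 81 bp, since replicates 1 and 2 put the summit 78 and 73 bp to the right of the optimal one. The median was 16.5 bp over the 10 peaks and 38 bp over the 1611 distal peaks that had a summit within 100 bp in all 3 full lists.

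**Figure D2:**
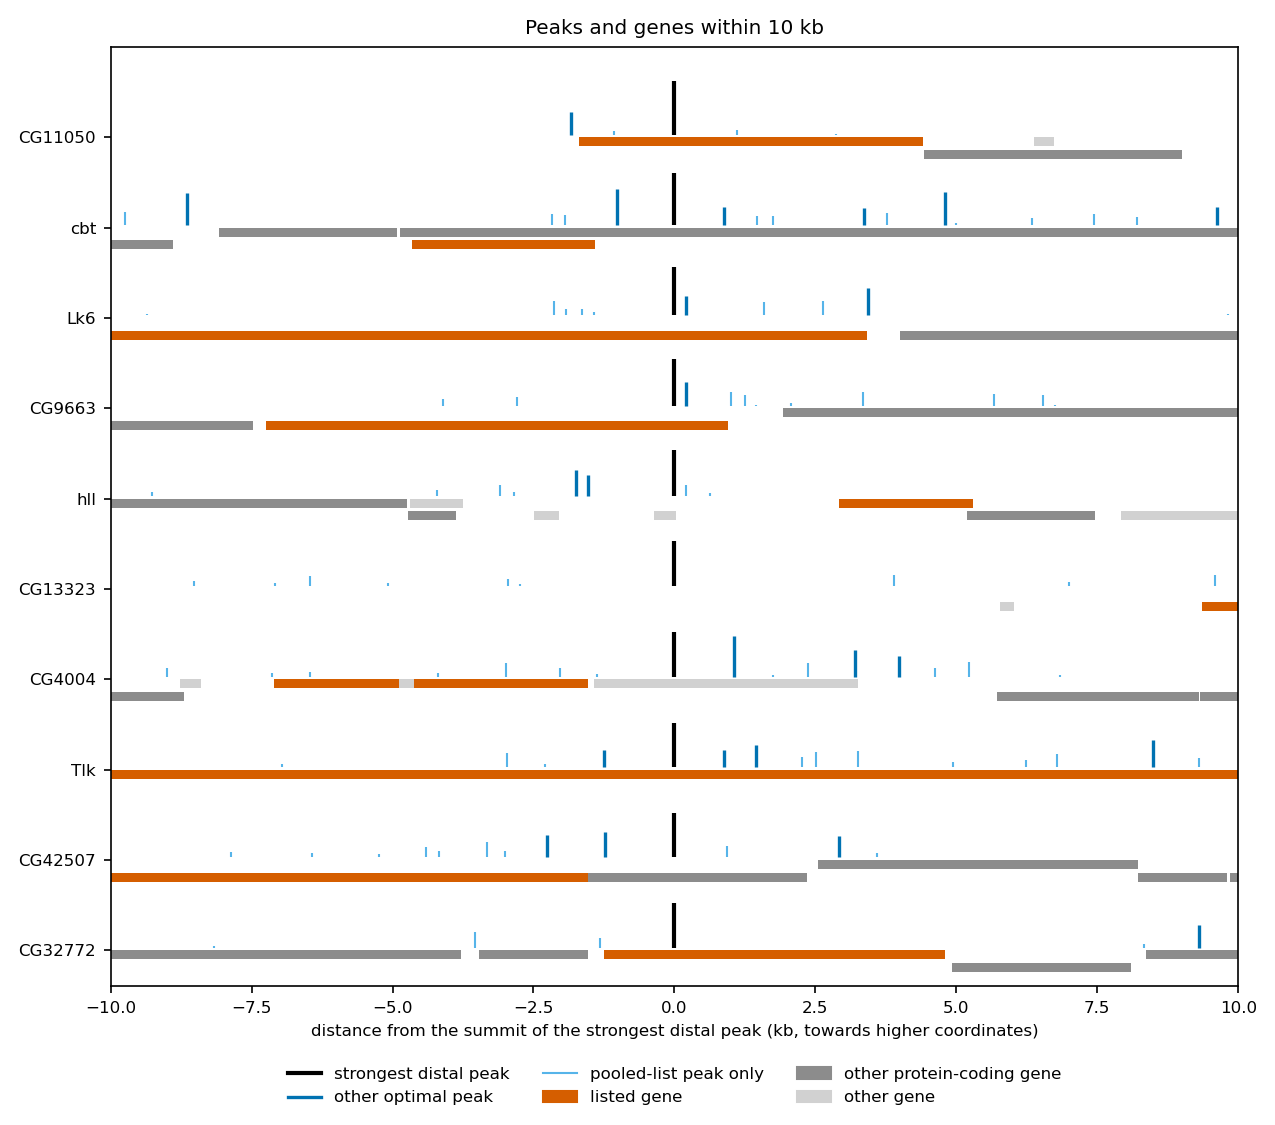
Peaks and genes within 10 kb of each gene's strongest distal peak, by distance from its summit in kb towards higher coordinates. Bar heights follow the log of the signal, for the strongest distal peak (black), other optimal peaks (dark blue) and peaks found in the pooled list only (light blue), and boxes mark genes, with forward-strand genes in the upper row. The cbt locus holds 6 further optimal peaks and the CG13323 locus none.

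Within 10 kb of the 10 summits lay 23 other optimal peaks, 8 of them within 500 bp of a coding TSS and 15 farther away. At least 1 was present at 9 of the 10 peaks, and 72.8% of all distal peaks had one. The median number was 2 for the 10 peaks, 2 for the 100 distal peaks of highest signal and 1 for all distal peaks. Another 83 peaks were in the pooled list only, with signals from 40.5 to 145, and their median was 9 per locus for the 10 genes and 8 for all distal peaks. The pooled list is labelled as holding background as well as peaks. Of the 23, 2, beside Lk6 and CG9663, overlapped the stronger peak itself. Support from all 3 replicates was found for 14 of the 23 and for 51.0% of all distal peaks. Its share over all optimal peaks is not given here. No optimal neighbour at CG9663 or hll had that support. An optimal neighbour within 1 kb was found at 4 of the 10 peaks, those of cbt, Lk6, CG9663 and Tlk. None of these close neighbours had support from all 3 replicates. The share with one within 1 kb was 20% among the 100 distal peaks of highest signal and 17.1% among all distal peaks.

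The cbt locus was the most crowded, with 6 other optimal and 10 pooled-only peaks. The strongest of the 6, with a signal of 758 and rank 158, lay 1020 bp to the left and 388 bp from the cbt TSS, so both this peak and the strongest one lie upstream of cbt. Its ranks in the 3 replicates were 138, 121 and 244. The next 2 were a peak in ush 4790 bp to the right, at 631 and rank 229, and a peak 8644 bp to the left, at 567 and rank 284, which is 252 bp from the CG4297 TSS. All 3 had support from all 3 replicates. The other 3, at 177, 173 and 166, lay 9630, 878 and 3368 bp to the right, and none had it.

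CG4004 was the only locus where a neighbour approached the strongest peak. A second peak 1059 bp to the right, also far from any coding TSS, had a signal of 1161 and rank 51, so the stronger peak was 1.41 times as high. It ranked 82, 42 and 48 in replicates 1, 2 and 3. A further 2 stood 3199 and 3983 bp to the right, at 367 and 210, and all 3 were supported by every replicate. At the other 8 loci with a neighbour the strongest peak was 3.91 to 13.6 times as high as the next, lowest at cbt and highest at CG11050.

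The Tlk locus had 4 neighbours, all of them in the same long intron span and away from a TSS. They stood 8479, 1452 and 874 bp to the right and 1244 bp to the left, with signals of 357, 245, 164 and 160, and the one at 874 bp was the only one without support from all 3 replicates. The CG42507 locus had 3, all at promoters: a peak 1232 bp to the left with a signal of 320, which is 294 bp from the shared start of CG42507 and Trl, one 2265 bp to the left at 255, 113 bp from a Trl TSS, and one 2920 bp to the right at 228, 380 bp from the TSS of Mgat4a. The first of these ranked 5331, 784 and 3286 in the 3 replicates and so lacked support in replicate 1.

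The hll locus had 2 neighbours only 200 bp apart, 1742 and 1542 bp to the left, at 348 and 219. The one at 1742 bp was matched only in replicate 3, at rank 216, while the other ranked 1381 and 884 in replicates 1 and 2 and 16292 in replicate 3. At Lk6, a peak 27 bp from the TSS of the longer transcript, 3440 bp to the right, had a signal of 380 and ranks of 586, 1206 and 928, and a peak of 204 overlapped the strongest one with its summit 200 bp away. CG9663 had a single neighbour, an overlapping peak of 274 with its summit 212 bp away. CG11050 had one at its own promoter, 1836 bp to the left at 255, and CG32772 had one 9310 bp to the right at 247, nearest to Hgsnat. CG13323 had none, and its 9 pooled-only peaks reached a signal of 102.

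The promoters of the 10 genes were then examined. An optimal peak lay within 500 bp of a TSS of 5 of them, CG11050, cbt, Lk6, Tlk and CG42507, and of 18.7% of all protein-coding genes. The best of these promoter peaks ranked 158 at cbt, 653 at Lk6, 924 at CG42507, 1359 at Tlk and 1412 at CG11050, so none came near the rank of the distal peak. CG9663, CG13323, CG4004 and CG32772 had a promoter entry in the pooled list only, with signals of 125, 73.9, 56.3 and 86.8. Their pooled ranks were 5370, 12039, 18146 and 9533. That list is labelled as holding peaks and background, so such an entry need not be a bound site. The share of all genes with a pooled entry at a TSS was not counted. No peak of either list lay within 500 bp of the hll TSS. Nearest distance ties a peak to a gene by position only, and whether any of these peaks acts on the listed gene was not tested.

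Sequence within 100 bp of the summit was searched on both strands for 15 motifs. They were the CRE palindrome TGACGTCA and its shorter core TGACG, the shuffled palindrome TGAGCTCA, the DRE TATCGATA and the BEAF core CGATA inside it, the M1BP core GTCACACT, the GAGA repeat GAGAGAG, the E-boxes CAGCTG and CACGTG, the AP-1 site TGANTCA, the CRE-C/EBP composite TGATGCAA, the Zelda motif CAGGTAG, the TATA box TATAAAA, and the 8-mers CACAGTGG and CACTGTGC, which overlap each other on opposite strands. Over all 1780 distal peaks, each motif's presence in the summit window was set against its presence in a distant window, centred 1000 bp towards higher coordinates, with a two-sided exact McNemar test and Benjamini-Hochberg adjustment over the 15. The test was past 0.05 for 2 of the 15, or 13.3%. CACAGTGG was in 4.38% of summit windows and 1.07% of distant ones (adjusted p = 3.33e-09, exact McNemar test), and CACTGTGC in 4.66% and 1.07% (adjusted p = 9.22e-10, exact McNemar test). With windows of 50 bp neither passed: CACAGTGG was in 1.29% and 0.618% (adjusted p = 0.376, exact McNemar test) and CACTGTGC in 1.52% and 0.562% (adjusted p = 0.114, exact McNemar test). Both 8-mers were taken from earlier results on these same peaks, so their difference here is no independent evidence.

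Of the 10 member windows, only that of CG42507 held these 8-mers, and there the pair overlapped at -91 to -83 bp from the summit. No member window held the CRE palindrome, which was in 0.562% of distal summit windows and 0.449% of distant ones, a difference that did not pass (adjusted p = 0.888, exact McNemar test). The CRE core was in 1 member window, that of CG11050 at -93 to -89 bp, and in 14.7% of summit windows against 16.7% of distant ones (adjusted p = 0.321, exact McNemar test). With the distant window on the other side the share there was 18.4% and the lower share at summits passed (adjusted p = 0.0177, exact McNemar test). With windows of 250 bp the summit share was the higher one, 39.5% and 36.8% (adjusted p = 0.262, exact McNemar test). Median GC was 37.8% in the distal summit windows and 40.8% in those 1000 bp to the right, and the test did not adjust for it. That CG11050 site extends to the closest match to the palindrome among the 10, with 1 mismatch, A8G, counted from 1 at the palindrome's 5′ end with the palindrome's base first. The cbt, Lk6 and CG9663 windows came within 2 mismatches and the other 6 within 3. A site with at most 1 mismatch was in 1 of the 10 windows, in 3.88% of all distal summit windows and in 4.10% of distant ones.

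The GAGA repeat was in 3 member windows, those of Lk6, CG9663 and Tlk, always 80 to 89 bp from the summit, and in 6.52% of all distal summit windows and 4.94% of distant ones (adjusted p = 0.225, exact McNemar test). With windows of 250 bp it was in 4 member windows and passed over all distal peaks, with 17.6% at summits and 10.7% at the distant place (adjusted p = 2.08e-08, exact McNemar test), and with the distant window on the other side it passed with 6.52% and 4.49% (adjusted p = 0.0378, exact McNemar test). Among the 1059 distal peaks supported by replicates 2 and 3, the shares were 5.10% and 5.38%. The window in Trl, the gene of the GAGA factor itself, held none. The TATA box was also in 3 windows, at -6 to 0 bp from the summit in cbt, at 9 to 15 bp in CG32772 and at 38 to 44 bp in CG42507. It was in 11.5% of all distal summit windows and 11.1% of distant ones (adjusted p = 0.888, exact McNemar test). The BEAF core was in 2, cbt and Tlk, and in 21.9% of all distal summit windows and 21.1% of distant ones (adjusted p = 0.888, exact McNemar test). None of the remaining motifs was in a member window, and the windows of hll, CG13323 and CG4004 held none of the 15. A match describes these letters only, and binding by the named factors was not tested.

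Of the words of 8 bases in the member windows, 2 were in 4 windows and 12 in 3, and no word was in more than 4. The 2 words and, of the 12, the 3 held by the fewest distal summit windows are given here. TAAAACTA was in 4 windows, those of CG11050, Lk6, Tlk and CG32772, and in 1.91% of all distal summit windows and 1.91% of distant ones. AAAATTTA was in 4, those of CG9663, CG4004, CG42507 and CG32772, and in 3.76% and 3.54%. GTTTTACA was in 3 windows (CG11050, Lk6 and CG9663), AAATTTTG in 3 (CG9663, CG4004 and CG42507) and AAAAAGAG in 3 (Lk6, CG4004 and Tlk), and each was in 1.18% to 2.36% of all distal summit windows. In the CG11050 and Lk6 windows printed above, TAAAACTA and GTTTTACA run into each other as 1 stretch on opposite strands. These words were picked for being shared, so their counts carry no test.

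**Figure D3:**
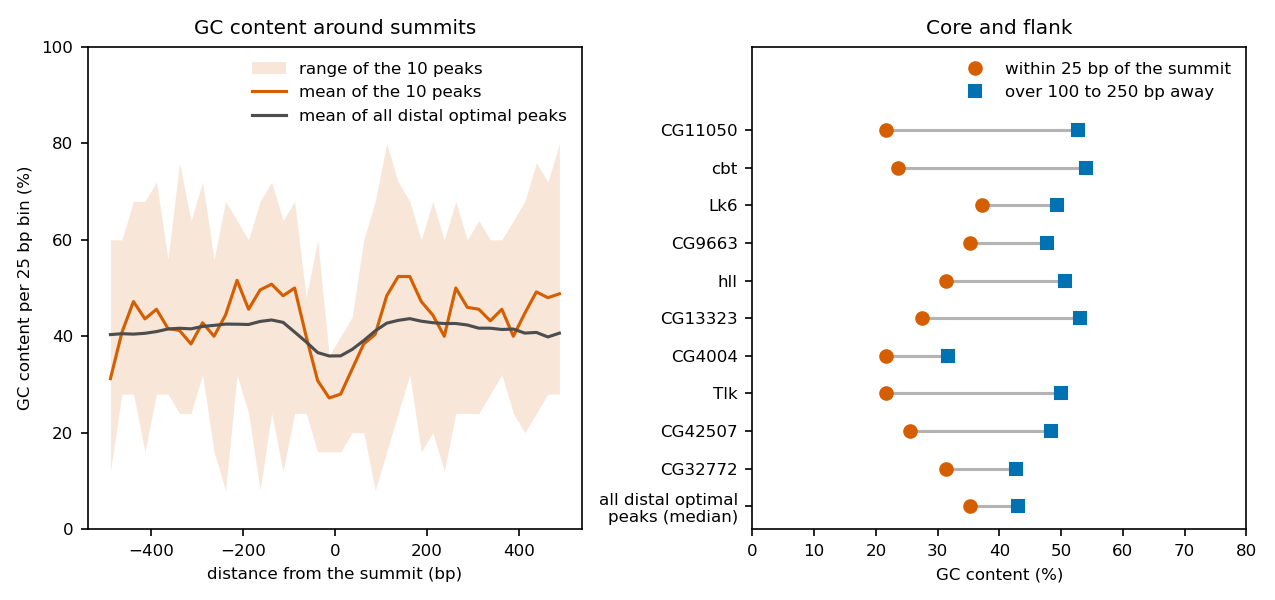
Left, GC content in bins of 25 bp by distance from the summit, as the mean and range of the 10 peaks (orange) and the mean of all 1780 distal optimal peaks (grey). Right, GC content within 25 bp of each summit (circles) and at more than 100 and up to 250 bp from it (squares), with medians over all distal peaks in the lowest row; every one of the 10 peaks has the lower value at the summit.

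GC content over the whole window had the same median, 37.8% for the 10 peaks and 37.8% for all distal peaks, at 100 bp either side only: within 50 bp it was 28.7% and 35.6%, and within 250 bp 44.6% and 40.9%. By position, within 25 bp of the summit the median was 26.5% for the 10 peaks and 35.3% for all distal peaks, while at more than 100 and up to 250 bp it was 49.7% and 43.0%. The 100 distal peaks of highest signal were nearer to the 10, with medians of 29.4% within 25 bp and 46.7% in this flank. The summit was poorer in GC than this flank at 10 of 10 peaks, and at 70.1% of all distal peaks. The contrast was widest at CG11050, with 21.6% at the summit and 52.7% in the flank, and at cbt, with 23.5% and 54.0%. It was narrowest at CG4004, with 21.6% and 31.7%, the only flank below 40%. The 2 distances were chosen after the profile around the summits had been seen, so the count is a description.

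Annotated exons lay in part of these windows. Exon bases made up 91.0% of the flank at CG11050, whose short intron sits between coding exons, 50% at hll and 100% at CG4004, where the exons are noncoding. The 7 peaks with no exon base in the flank all had the lower GC at the summit, with medians of 27.5% at the summit and 49.3% in the flank. Of the 1453 distal peaks without exon bases in the flank, 71.3% had it, with medians of 33.3% and 43.0%. Signal moved with the same measure: the share of distal peaks with the lower GC at the summit was 86.0% among the 100 strongest, and 77.1%, 72.1%, 68.5% and 62.7% in 4 equal groups of the 1780, taken from highest to lowest signal. The part of base composition in the signal was not tested. All 166 words of 36 bases in each of the 10 windows occur once in the assembly, and the share of bases in lower case in the assembly, a mark of repeats, had a median of 22.6% for the 10 windows and 19.4% for all distal peaks.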

How the data were processed

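The authors called peaks on each of the 3 replicates against 1 control alignment, and on the 3 together for a pooled list, on assembly dm6, as the companion text to the deposited lists states. The optimal list comes from these by an IDR threshold, per the same text, and the aligner and peak caller are not given in the sources used here. The pooled list and the list of each replicate have 30000 peaks each, and the optimal list equals the 3915 pooled peaks of highest signal. The pooled list is labelled as peaks and background for IDR input. In replicates 1, 2 and 3, 10907, 9441 and 8744 of the 30000 had a q-value under 0.05. The deposited signal value of a peak comes on a scale that is not stated, and served to rank or filter peaks within a list. The deposited −log10 q-value reaches its highest value, 3.78, in 3043 of the 3915 optimal peaks and was not used to rank. The labels give sonication with a size range of 200 to 800. Samples were grouped by the antibody label.

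Genes were those of Ensembl release 115, and sequence was RefSeq Release 6; coordinates are the deposited ones, counted from 1. The strongest distal peak of each of the 10 genes was described, with both neighbouring genes and every optimal peak within 10 kb; the 2 distal peaks just outside the choice and 5 shared 8-mers were named as well, by the number of member windows with ties settled by the lowest share of distal peaks. A replicate supported a peak with a summit within 100 bp among its 3915 strongest peaks. The members, motifs and lists were chosen with earlier results of these data known. The only test, the exact McNemar test over 1780 distal peaks, measures these pooled lists and not the spread between embryos. It was tested on simulated windows with the same base composition on both sides. That check could therefore not show calls made by a difference in composition. The alternatives were other TSS, summit and neighbour distances, windows, list depths, peak sets and replicates left out. Python 3.11.15, numpy 2.4.6, pandas 2.3.3, scipy 1.17.1 and matplotlib 3.10.9 were used.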

Additional observations from a re-analysis of the deposited data

How the results depend on the processing

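The 10 genes kept 8 to 10 of the 10 strongest distal places. With 1 replicate left out the number was 8 to 10: 10 without replicate 1, 9 without replicate 2 (hll lost) and 8 without replicate 3 (CG42507 and CG32772 lost). Here the same distal optimal peaks were kept and re-sorted by their mean rank in the other 2 lists. That optimal list came from all 3 replicates, so the replicate left out still had a part in it. A TSS distance of 250 bp gave 9 (CG32772 lost) and 1000 bp gave 8 (Lk6 and CG9663 lost). Counting TSSs of every gene type gave 9, since hll's peak lies at a noncoding gene's start. These 3 settings kept the signal order that chose the genes. At 1000 bp only Lk6 (965 bp) and CG9663 (955 bp) could drop out, and with every gene type only hll (19 bp). Those counts of 8 and 9 were therefore fixed in advance. The median replicate rank gave 9 (CG42507 lost). Support from all 3 replicates held for 9 of 10 peaks at a summit distance of 50 bp (39.9% of all distal peaks). It held for 10 at the smaller list depth (28.1%). No member peak ranked below place 42 in any replicate, so that depth could not remove one either. A summit distance of 200 bp (55.1%), full lists (90.5%) and 1 replicate left out (59.5% to 63.8%) only loosen the rule. The count of 10 under those settings was therefore fixed in advance. A neighbouring optimal peak was present at 8 of 10 within 5 kb (56.2% of all distal peaks) and at 10 within 20 kb (84.5%). The count of motifs past the test, 2, was 2 with any replicate left out, 3 with windows of 250 bp, 4 with the distant window 1000 bp to the left, and 0 with windows of 50 bp, where 1 motif had an unadjusted exact McNemar p under 0.05 (adjusted p = 0.376 for CACAGTGG and 0.114 for CACTGTGC, exact McNemar test). It was also 2 among the 890 distal peaks of highest signal. Leaving a replicate out here kept the distal optimal peaks supported by the other 2 lists, 1059 to 1136 of them. The replicate left out still had a part in those peaks and their summits. Wherever the count was 2, the motifs were the overlapping 8-mers taken from earlier results on these peaks. Their passing in parts of the same peaks is no independent evidence. The added motifs were the GAGA repeat in the 250 bp and left-hand settings and, in the left-hand one, the CRE core TGACG, which was less frequent at summits (14.7% and 18.4%). The median GC content of the 10 windows, 37.8%, was 28.7% within 50 bp (35.6% for all distal peaks) and 44.6% within 250 bp (40.9%). The count of 10 peaks with lower GC at the summit was 10 under the 3 other choices of core and flank, added after seeing the data (66.2% to 68.9% of all distal peaks). Ranking by the −log10 q-value gave no value because of ties. No paired analysis was possible because there is 1 group. Read depth is unknown, so a peak outside the lists cannot be told from one not detected.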
